A study of Mus musculus with 12 samples.

Results

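The genes described here are 39 interferon response genes of the mouse, chosen as genes whose transcription type I interferon is known to raise, together with the factors that carry the signal to them. They were taken by name and found on the arrays through the RefSeq accession of each probe. Of the 39, 37 had a named probe and 32 had a signal bright enough to be tested, among 12300 genes tested in all. Mx1 and Mx2, which encode dynamin-like antiviral GTPases, had no named probe here. Oas2, Oas3, Oasl1, Rsad2 and Cmpk2 had probes, but no group had one of them well above background on its 3 arrays, and these 5 genes were not tested. Of the 32 tested genes, 25 were well above background on all 12 arrays, and 2, Trim25 and Oas1a, were kept through 1 group only.

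Interferons are secreted proteins that cells make after sensing viral or other foreign nucleic acid. Type I interferon binds a receptor that acts through Janus kinases, and phosphorylated Stat proteins, Stat2 among them, join Irf9 to form the complex ISGF3. That complex enters the nucleus and binds a short promoter element, the interferon-stimulated response element (ISRE), in front of many genes that interferon raises. Fibroblasts are a classical source and target of type I interferon, and many of these genes have a low basal level in cells that have not met a virus.

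Transcripts were measured in C3H/10T1/2, fibroblasts of a mouse embryo kept as a line, which MyoD, the muscle regulatory factor, can convert to the muscle lineage. All cells carried a stable short hairpin, either against Six4 (shSix4), a homeobox factor of the muscle programme, or a control hairpin named shLuc. A retrovirus brought in either tagged MyoD from the plasmid pBABE or the empty pBABE, and 24 h later all cells were moved to medium with 2% horse serum for 24 h. The 4 groups of 3 arrays are shSix4 cells with MyoD (shSix4-MyoD), shSix4 cells with empty vector (shSix4-empty), shLuc cells with MyoD (shLuc-MyoD) and shLuc cells with empty vector (shLuc-empty). Every group therefore carried a hairpin and had been exposed to a retrovirus, and no group of uninfected or interferon-treated cells was analysed here. The labels name 1 line per hairpin and do not say whether the lines were clones or the replicates separate cultures. P-values here therefore speak for the scatter among these arrays alone, which can be technical.

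Levels below are log2 signals relative to the 75th percentile of the same array, so that a level of 0 equals that percentile, and values of a group are in the order of replicates 1, 2 and 3. Each replicate number was 1 slide that held 1 array of every group, and slides 2 and 3 were scanned on 1 day and slide 1 on another, per the file headers. Each group had the same position on all 3 slides, so position and group cannot be told apart. The number of probes above background on an array was 22318 to 27448 of 41174. On slide 1, 25 of the 32 tested interferon genes were above background in shSix4-MyoD and 28 in shSix4-empty, against 31 or 32 on each of the other arrays. The probe for Six4 had levels of -3.03, -2.93 and -1.54 in shSix4-MyoD against -1.45, -1.69 and -0.85 in shLuc-MyoD, and of -4.10, -2.998 and -2.82 in shSix4-empty against -2.62, -2.90 and -1.64 in shLuc-empty. It was lower in shSix4 cells on every slide, while the groups overlapped across slides. Myod1 had levels of -2.17, -0.86 and -0.23 in shSix4-MyoD and of 0.07, -0.23 and 1.23 in shLuc-MyoD. Its level with empty vector was at most -2.01 on the 4 arrays with a usable spot.

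The promoter sequences of 5 genes are shown because they carry, or in 1 case lack, the element through which ISGF3 is known to act. RefSeq windows (GRCm38.p6) of 300 bases, 250 before and 50 after each gene start, were searched on both strands for the core of the element, GAAANNGAAA. A core was found in 3.443% of 32851 windows, or for 3.993% of 27025 genes, and for 15 of the 30 interferon genes with a window. Each line gives the 180 bases before the gene start, 5′ to 3′ on the strand of the gene, and capitals mark the core on either strand, with overlapping cores run together.
Ifit3, chr19:34583349-34583528, plus strand: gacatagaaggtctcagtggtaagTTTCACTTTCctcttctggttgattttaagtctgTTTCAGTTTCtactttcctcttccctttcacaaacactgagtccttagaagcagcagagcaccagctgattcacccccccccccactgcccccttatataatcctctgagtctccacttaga
Isg15, chr4:156200819-156200998, minus strand: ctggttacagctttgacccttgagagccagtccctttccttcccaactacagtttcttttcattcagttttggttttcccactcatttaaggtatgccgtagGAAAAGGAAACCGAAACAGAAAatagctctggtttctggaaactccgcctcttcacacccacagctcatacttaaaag
Oas1a, chr5:120907526-120907705, minus strand: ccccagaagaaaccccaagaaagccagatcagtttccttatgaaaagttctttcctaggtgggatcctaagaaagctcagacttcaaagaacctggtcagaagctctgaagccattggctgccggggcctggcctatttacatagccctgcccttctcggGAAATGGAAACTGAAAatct
Oas1c, chr5:120812515-120812694, minus strand: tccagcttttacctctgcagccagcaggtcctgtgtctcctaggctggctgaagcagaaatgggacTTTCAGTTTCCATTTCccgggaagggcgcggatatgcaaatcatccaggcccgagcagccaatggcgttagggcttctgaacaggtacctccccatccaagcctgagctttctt
Trim25, chr11:88999223-88999402, plus strand: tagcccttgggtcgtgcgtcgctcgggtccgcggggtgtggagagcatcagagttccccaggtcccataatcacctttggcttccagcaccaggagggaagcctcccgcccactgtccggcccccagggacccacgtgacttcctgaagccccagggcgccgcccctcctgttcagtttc
Ifit3, Isg15, Oas1a and Oas1c each hold overlapping or repeated cores within these bases, and the stretch before Trim25 holds none. A match describes these letters only and is not a measured binding site. The E-box CANNTG, the motif bound by MyoD, was found for 21 of the 30 interferon genes and for 74.99% of all genes. Matches of the ISRE core and of the E-box may overlap.

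With MyoD, nearly all interferon genes had lower levels than with empty vector in both lines. In shSix4 cells 31 of 32 had a log2 change below 0, against 58.0% of all genes, and their median change was -0.55 against -0.06 for all genes. In shLuc cells 31 of 32 were below 0, against 64.9% of all genes, and the median change was -0.81 against -0.14. The changes were below 0 in both lines for 30 genes and above 0 in both for 0 genes. Past an adjusted p of 0.05 in limma's test, 1 interferon gene fell in shSix4 cells, where 0.106% of all genes did. In shLuc cells 3 fell, where 1.56% of all genes did, and 1, Trim25, was called higher, where 4.72% were. Trim25 and Oas1a, which is 1 of the 3, entered the test only through the group where each is high, so that the filter had a part in both calls. With the test limited to probes that stood well above background on all 12 arrays, 2 of 25 interferon genes fell in shLuc cells, where 1.28% of all genes did, and none was called higher. With normexp background correction in place of the processed signal none of these calls passed, and 0% of all genes were called lower in either line. Under it 30 interferon genes in shSix4 cells and 29 in shLuc cells stayed below 0. These are bulk samples, in which fewer cells of a type and less RNA per cell cannot be told apart.

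**Figure D1:**
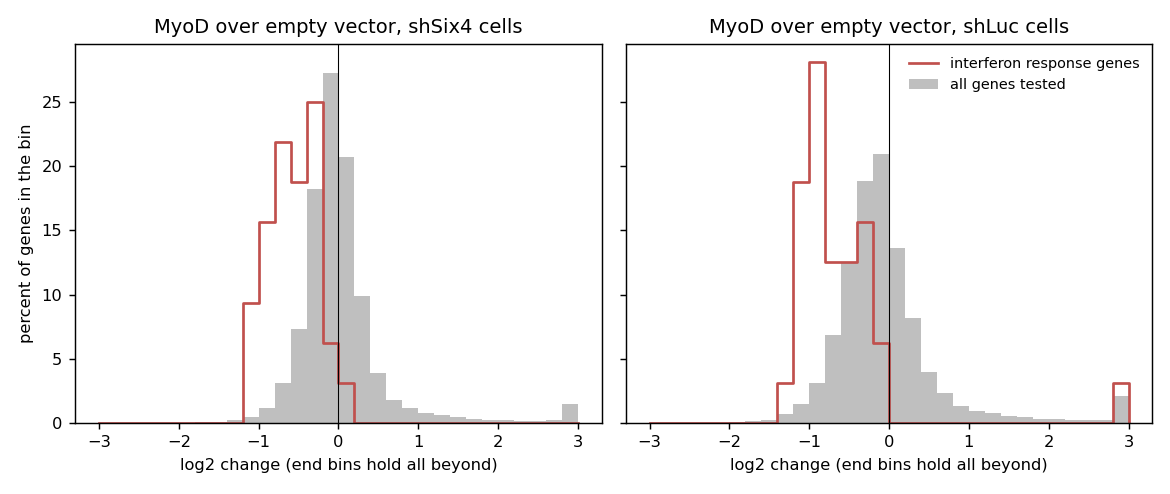
Histograms of the log2 change with MyoD over empty vector in shSix4 cells (left) and shLuc cells (right), as the percent of genes per bin, for the 32 interferon genes (line) and all 12300 genes tested (grey). The interferon genes lie to the left of the bulk of all genes in both lines, with medians of -0.55 and -0.81, and the single gene in the right end bin in shLuc cells is Trim25.

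The arrays of a slide deviated together, and with the slide as a block in the fit (called blocked below) 5 interferon genes fell in shSix4 cells, where 2.60% of all genes did, and 18 fell in shLuc cells, where 15.7% did. Trim25 was the 1 gene called higher in shLuc cells with the block, where 9.89% of all genes were. With the slide as a random effect instead, the shLuc calls of Ifit1, Ifit2 and Ddx58 were lost. Ifit3, Oas1a, Oas1c, Usp18 and Rtp4 fell in both lines, which is 5 of 5 in shSix4 cells and 5 of 18 in shLuc cells. Within slides, 24 interferon genes were lower with MyoD on all 3 slides in shSix4 cells, against 30.2% of all genes, and 26 in shLuc cells, against 40.3%. Those lower on all 3 slides in both lines numbered 22. The 3 arrays with MyoD lay wholly below the 3 with empty vector for 7 genes in shSix4 cells, against 7.39% of all genes, and for 18 genes in shLuc cells, against 16.0%. Of the 15 genes that fell in shLuc cells with the block and have a promoter window, 11 hold an ISRE core. Ifit2, Irf7, Ifi35 and Xaf1 fell without one. Of the 10 genes with a window that passed in neither direction, 2 hold a core, Stat2 and Bst2. Psmb9 and Tap1, among these 10, have windows that overlap. Whether the element had a part in the changes was not tested.

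**Figure D2:**
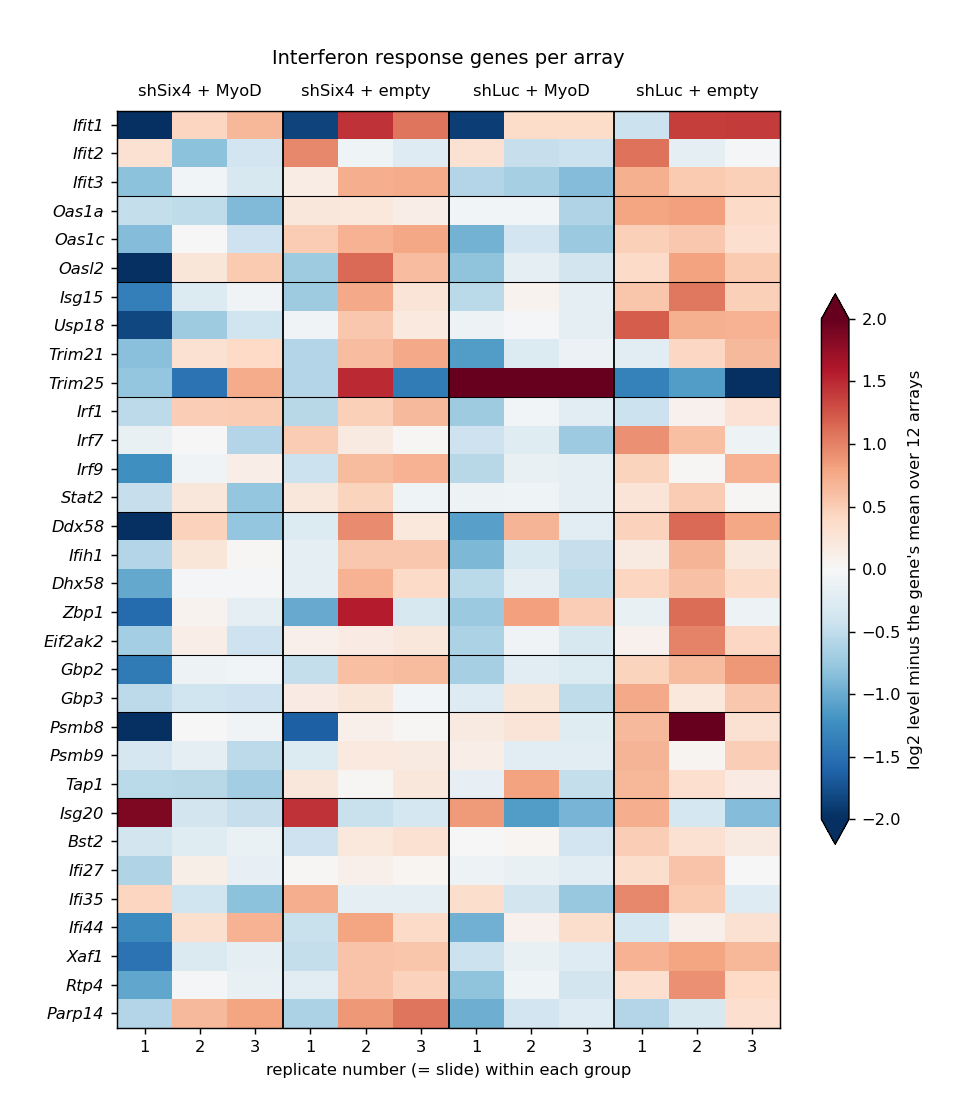
Heat map of the 32 tested interferon genes on the 12 arrays, as the log2 level minus the mean of the gene over all arrays (blue lower, red higher, colours end at 2 either way), with replicate 1, 2 and 3 side by side in each group. Blue prevails in both groups with MyoD, the first array of each group stands apart from the other 2 for genes such as Ifit1 and Isg20, and Trim25 is highest on the 3 arrays of shLuc-MyoD.

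The IFIT proteins bind viral RNA that lacks the marks of host messages, and all 3 had lower mean levels with MyoD in both lines. Ifit3, which stabilises Ifit1 in the human complex, had levels of -0.23, 0.54 and 0.28 in shSix4-MyoD, 0.76, 1.32 and 1.34 in shSix4-empty, 0.01, -0.06 and -0.27 in shLuc-MyoD and 1.32, 1.12 and 1.07 in shLuc-empty. In both lines the 3 arrays with MyoD lay below all 3 with empty vector. Its log2 change was -0.94 ± 0.23 in shSix4 cells (SE, adjusted p = 0.0628, or 0.0219 blocked) and -1.28 ± 0.23 in shLuc cells (adjusted p = 0.00622), so that the shLuc level with MyoD was 0.412 times that with empty vector. Ifit1, which recognises RNA caps that lack methylation, had levels of -5.06, -1.65 and -1.43 in shSix4-MyoD, -3.94, -0.64 and -1.01 in shSix4-empty, -3.98, -1.72 and -1.72 in shLuc-MyoD and -2.52, -0.70 and -0.69 in shLuc-empty. Its arrays of slide 1 were the lowest of every group, and the groups overlapped. Within slides it was lower with MyoD every time, with differences of -1.12, -1.01 and -0.42 in shSix4 cells and -1.45, -1.02 and -1.04 in shLuc cells on the log2 scale. The change in shLuc cells was -1.17, with an SE of 1.13 without the block and 0.32 with it. It passed with the block (adjusted p = 0.0259) but not without it (adjusted p = 0.645) or with the slide as a random effect (adjusted p = 0.101). Ifit2, a partner of these proteins that acts in antiviral defence and cell death, had levels of -1.43, -2.56 and -2.11 in shSix4-MyoD, -0.77, -1.82 and -1.99 in shSix4-empty, -1.43, -2.20 and -2.17 in shLuc-MyoD and -0.66, -1.93 and -1.77 in shLuc-empty. Here slide 1 was the highest of every group, opposite to Ifit1. Its change in shLuc cells was -0.48 ± 0.44 (adjusted p = 0.625, or 0.0425 blocked and 0.105 with the random effect).

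The OAS family includes enzymes that make 2′-5′-linked oligoadenylates on double-stranded RNA, though not every member has this activity. Of its 6 listed genes 3 were tested, and Oas1c fell in both lines and Oas1a in shLuc cells. Oas1c, a mouse paralogue of Oas1a, had levels of -2.29, -1.42 and -1.85 in shSix4-MyoD, -0.92, -0.73 and -0.66 in shSix4-empty, -2.38, -1.81 and -2.17 in shLuc-MyoD and -0.96, -0.90 and -1.09 in shLuc-empty. The groups with MyoD and with empty vector did not overlap in either line. The log2 change was -1.08 ± 0.23 in shSix4 cells (adjusted p = 0.0286) and -1.14 ± 0.23 in shLuc cells (adjusted p = 0.0132), or 0.472 and 0.454 times the level with empty vector. The shSix4 call, and the shLuc calls of Oas1c and Oas1a, ended when any of several single arrays was left out. Without the arrays of slide 1 the shSix4 call of Oas1c and the shLuc call of Oas1a ended too. Oas1a, a catalytically active mouse form, had levels of -5.66, -5.69 and -6.07 in shSix4-MyoD, -4.95, -4.97 and -5.05 in shSix4-empty, -5.23, -5.24 and -5.79 in shLuc-MyoD and -4.40, -4.36 and -4.81 in shLuc-empty. It was dim, and 2 of 3 arrays had it well above background in each group except shLuc-empty, where all 3 did. It entered the test through shLuc-empty alone, its highest group, so the fall in shLuc cells is that of a gene kept where it was high. Its change was -0.81 ± 0.21 in shSix4 cells (adjusted p = 0.0801, or 0.003 blocked) and -0.90 ± 0.21 in shLuc cells (adjusted p = 0.0281). The Oas1 genes are close copies of each other, and how far their probes share transcripts is not known from the files. Oasl2, an OAS-like protein with ubiquitin-like domains, had levels of -5.40, -2.98 and -2.71 in shSix4-MyoD, -3.94, -2.10 and -2.61 in shSix4-empty, -4.03, -3.42 and -3.59 in shLuc-MyoD and -2.85, -2.43 and -2.70 in shLuc-empty. Its array of slide 1 was the lowest in every group, and its change of -1.02 ± 0.65 in shLuc cells did not pass with or without the block (adjusted p = 0.103 and 0.445).

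Isg15 is a ubiquitin-like protein that is joined to other proteins after interferon, and Usp18 removes it again and also damps signalling at the interferon receptor. Isg15 had levels of -3.19, -2.09 and -1.90 in shSix4-MyoD, -2.53, -1.06 and -1.56 in shSix4-empty, -2.36, -1.75 and -2.02 in shLuc-MyoD and -1.26, -0.77 and -1.34 in shLuc-empty. The shLuc groups did not overlap, whereas in shSix4 cells the slide 1 array with empty vector was below 2 of the 3 arrays with MyoD. The change was -0.68 ± 0.41 in shSix4 cells and -0.92 ± 0.41 in shLuc cells, and the second passed with the block only (adjusted p = 0.251 without and 0.0239 with it). Usp18 had levels of -4.79, -3.67 and -3.36 in shSix4-MyoD, -3.04, -2.43 and -2.77 in shSix4-empty, -3.07, -3.01 and -3.14 in shLuc-MyoD and -1.75, -2.26 and -2.27 in shLuc-empty. All 3 arrays with MyoD lay below those with empty vector in each line. Its change was -1.20 ± 0.33 in shSix4 cells (adjusted p = 0.107, or 0.0486 blocked) and -0.98 ± 0.33 in shLuc cells (adjusted p = 0.122, or 0.0475 blocked).

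The 2 ligases of this group differed in direction in shLuc cells. Trim21, an E3 ubiquitin ligase that binds antibody bound to virus inside the cell, had levels of -2.47, -1.33 and -1.23 in shSix4-MyoD, -2.21, -1.01 and -0.87 in shSix4-empty, -2.75, -1.90 and -1.75 in shLuc-MyoD and -1.85, -1.22 and -0.98 in shLuc-empty. Slide 1 was lowest in every group and the groups overlapped, but on each slide MyoD was lower, with differences of -0.26, -0.33 and -0.36 in shSix4 cells and -0.89, -0.68 and -0.77 in shLuc cells. The change in shLuc cells was -0.78 ± 0.45 (adjusted p = 0.395, or 0.00329 blocked). Trim25, the ligase that modifies the RNA sensor RIG-I in human cells, had levels of -7.31, -8.02 and -5.80 in shSix4-MyoD, -7.14, -5.06 and -7.94 in shSix4-empty, -4.45, -4.42 and -4.23 in shLuc-MyoD and -7.90, -7.66 and -8.62 in shLuc-empty. Its signal stood well above background on every array of shLuc-MyoD, on 1 of 3 in each shSix4 group and on 0 of 3 in shLuc-empty. It entered the test through shLuc-MyoD alone, so its difference from shLuc-empty was in part set by that choice. Since shLuc-empty was not well above background, the level in shLuc-MyoD is given as at least 3.01-fold higher (adjusted p = 0.00758), against the lowest signal measured above background on each array. With normexp background correction the fitted log2 change was 0.30 (adjusted p = 1.00), so the bound is one of the processed signal only. A second probe for Trim25 was not above background on any array and gave a fitted change of 0.58 in shLuc cells.

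**Figure D3:**
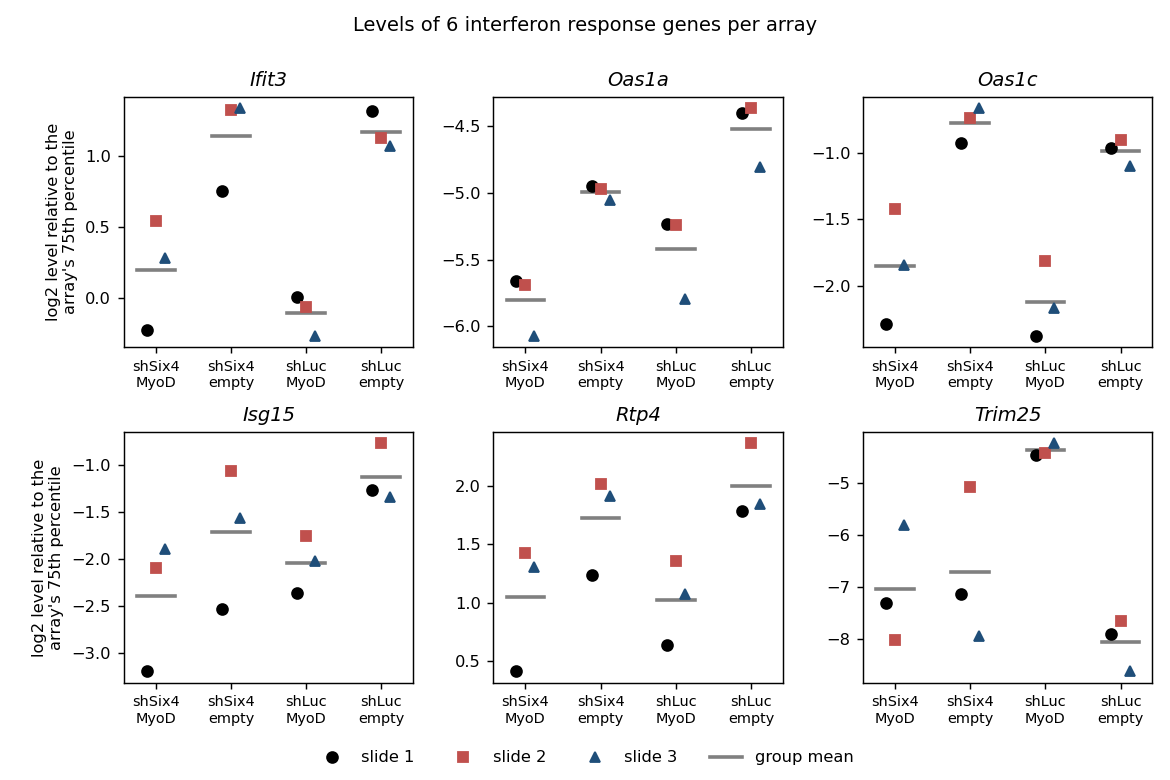
Log2 level relative to the 75th percentile of the array for Ifit3, Oas1a, Oas1c, Isg15, Rtp4 and Trim25, with 1 point per array, the marker giving the slide and the grey line the group mean. In shLuc cells the 3 points with MyoD lie below the 3 with empty vector for every gene shown except Trim25, where they lie above at levels of -4.45 to -4.23.

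The transcription factors of the interferon system had changes below 0 in both lines, by the probes used. Of the 4 only Irf7 passed a test, in shLuc cells with the block. Irf7, the factor that amplifies interferon production, had levels of -3.83, -3.67 and -4.27 in shSix4-MyoD, -3.17, -3.51 and -3.65 in shSix4-empty, -4.10, -3.92 and -4.41 in shLuc-MyoD and -2.77, -3.08 and -3.79 in shLuc-empty. The groups did not overlap in either line. Its change was -0.48 ± 0.28 in shSix4 cells (adjusted p = 0.713) and -0.93 ± 0.28 in shLuc cells (adjusted p = 0.0825, or 0.00372 blocked). Irf9, the DNA-binding subunit of ISGF3, had levels of -1.28, -0.12 and 0.07 in shSix4-MyoD, -0.48, 0.57 and 0.63 in shSix4-empty, -0.62, -0.21 and -0.23 in shLuc-MyoD and 0.38, -0.03 and 0.64 in shLuc-empty. Its changes were -0.68 ± 0.39 in shSix4 cells and -0.68 ± 0.39 in shLuc cells, and neither passed (adjusted p = 0.697 and 0.388). Stat2, its signalling partner, had levels of -0.22, 0.48 and -0.52 in shSix4-MyoD, 0.47, 0.70 and 0.16 in shSix4-empty, 0.15, 0.17 and 0.06 in shLuc-MyoD and 0.51, 0.76 and 0.27 in shLuc-empty. The change was -0.53 ± 0.26 in shSix4 cells (adjusted p = 0.577) and -0.39 ± 0.26 in shLuc cells (adjusted p = 0.47). Irf1, a factor that also answers to interferon gamma, had levels of 2.68, 3.69 and 3.71 in shSix4-MyoD, 2.66, 3.68 and 3.86 in shSix4-empty, 2.50, 3.15 and 3.001 in shLuc-MyoD and 2.78, 3.30 and 3.50 in shLuc-empty. MyoD and empty-vector arrays overlapped in both lines, with changes of -0.04 ± 0.38 and -0.31 ± 0.38, while slide 1 was below both other slides in every group. From a second, dimmer Irf1 probe, above background on all 12 arrays, the changes were -0.06 in shSix4 cells and 0.02 in shLuc cells.

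Among sensors of foreign RNA and kinases, 4 of 5 fell in shLuc cells with the block, 3 of them also with the slide as a random effect, and none passed in shSix4 cells, where all 5 changes were below 0 (0 of 5 at an unadjusted p of 0.05). Ddx58 encodes RIG-I, the sensor of viral RNA ends, and had levels of -1.75, 1.00 and -0.23 in shSix4-MyoD, 0.26, 1.48 and 0.75 in shSix4-empty, -0.55, 1.22 and 0.31 in shLuc-MyoD and 1.01, 1.67 and 1.32 in shLuc-empty. Every slide was lower with MyoD, with differences of -2.01, -0.48 and -0.99 in shSix4 cells and -1.55, -0.46 and -1.01 in shLuc cells, though the groups overlapped. Its change was -1.16 ± 0.64 in shSix4 cells (adjusted p = 0.67, or 0.0509 blocked) and -1.01 ± 0.64 in shLuc cells (adjusted p = 0.446, or 0.0409 blocked and 0.0541 with the random effect). Ifih1 encodes MDA5, which senses long double-stranded RNA, and had levels of -2.46, -1.63 and -1.84 in shSix4-MyoD, -2.04, -1.32 and -1.32 in shSix4-empty, -2.76, -2.18 and -2.33 in shLuc-MyoD and -1.68, -1.18 and -1.65 in shLuc-empty. The shLuc groups did not overlap, and the change there was -0.92 ± 0.29 (adjusted p = 0.0952, or 0.00192 blocked), beside -0.41 ± 0.29 in shSix4 cells. Dhx58 encodes LGP2, a regulator of these sensors, and had levels of -3.87, -2.85 and -2.85 in shSix4-MyoD, -3.02, -2.14 and -2.45 in shSix4-empty, -3.37, -3.02 and -3.34 in shLuc-MyoD and -2.40, -2.25 and -2.45 in shLuc-empty. Its change was -0.65 ± 0.30 in shSix4 cells and -0.87 ± 0.30 in shLuc cells, where it passed with the block (adjusted p = 0.0136).

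Eif2ak2 encodes PKR, the kinase that stops translation when it binds double-stranded RNA, and had levels of 0.06, 0.87 and 0.33 in shSix4-MyoD, 0.85, 0.92 and 0.97 in shSix4-empty, 0.12, 0.67 and 0.42 in shLuc-MyoD and 0.84, 1.75 and 1.17 in shLuc-empty. In shLuc cells all arrays with MyoD lay below those with empty vector, and the change was -0.84 ± 0.27 (adjusted p = 0.107, or 0.00615 blocked). In shSix4 cells slide 2 brought the groups into overlap, with a change of -0.49 ± 0.27. Zbp1, a sensor of Z-form nucleic acid that can start cell death, had levels of -6.15, -4.55 and -4.81 in shSix4-MyoD, -5.63, -3.05 and -4.93 in shSix4-empty, -5.36, -3.80 and -4.13 in shLuc-MyoD and -4.77, -3.50 and -4.73 in shLuc-empty. Its groups overlapped in both lines and its changes were -0.63 ± 0.69 and -0.10 ± 0.69, the smallest in size of this group in shLuc cells.

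Guanylate-binding proteins are GTPases that attack the membranes around intracellular pathogens, and both that were tested fell in shLuc cells with the block. Gbp2 had levels of -1.02, 0.30 and 0.34 in shSix4-MyoD, -0.07, 1.01 and 1.04 in shSix4-empty, -0.27, 0.20 and 0.14 in shLuc-MyoD and 0.86, 1.04 and 1.27 in shLuc-empty. In shLuc cells the groups did not overlap, and its change was -0.78 ± 0.39 in shSix4 cells and -1.03 ± 0.39 in shLuc cells (adjusted p = 0.171, or 0.00905 blocked). Gbp3 had levels of -1.79, -1.66 and -1.67 in shSix4-MyoD, -1.09, -1.01 and -1.31 in shSix4-empty, -1.52, -1.02 and -1.76 in shLuc-MyoD and -0.50, -1.05 and -0.72 in shLuc-empty. On slide 2 the shLuc pair differed by 0.03 with MyoD the higher, and the shLuc change was -0.68 ± 0.22 (adjusted p = 0.108, or 0.0345 blocked). In shSix4 cells the Gbp3 groups did not overlap, with a change of -0.57 ± 0.22 (adjusted p = 0.348).

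The antigen-processing genes Psmb8 and Psmb9, subunits of the immunoproteasome, and Tap1, a peptide transporter, passed in neither line with or without the block (1 of the 3 at an unadjusted p of 0.05 in each line). Psmb9 had levels of -2.79, -2.66 and -2.98 in shSix4-MyoD, -2.74, -2.26 and -2.28 in shSix4-empty, -2.32, -2.67 and -2.67 in shLuc-MyoD and -1.78, -2.40 and -1.96 in shLuc-empty. The groups overlapped in both lines, with changes of -0.38 ± 0.22 and -0.51 ± 0.22. Psmb8 had levels of -6.32, -4.22 and -4.30 in shSix4-MyoD, -5.86, -4.13 and -4.21 in shSix4-empty, -4.04, -3.96 and -4.47 in shLuc-MyoD and -3.58, -1.71 and -3.92 in shLuc-empty. It had changes of -0.22 ± 0.70 in shSix4 cells and -1.09 ± 0.70 in shLuc cells, and Tap1 of -0.76 ± 0.29 and -0.33 ± 0.29. Their shLuc values are unequal across slides, at -0.46, -2.25 and -0.55 for Psmb8 and -0.83, 0.47 and -0.64 for Tap1. A second Psmb8 probe gave changes of 0.26 in shSix4 cells and -0.71 in shLuc cells, so the probes disagree in direction in shSix4 cells.

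Of the other 8 effectors tested, Rtp4, Xaf1 and Ifi35 fell in shLuc cells with the block. Rtp4, known as a receptor-transporter protein that interferon raises, had levels of 0.41, 1.43 and 1.30 in shSix4-MyoD, 1.23, 2.02 and 1.91 in shSix4-empty, 0.64, 1.35 and 1.08 in shLuc-MyoD and 1.79, 2.36 and 1.84 in shLuc-empty. In shLuc cells the groups did not overlap, and in both lines every slide was lower with MyoD. Its change was -0.67 ± 0.33 in shSix4 cells (adjusted p = 0.568, or 0.0273 blocked) and -0.97 ± 0.33 in shLuc cells (adjusted p = 0.119, or 0.00218 blocked). Xaf1, which counters the apoptosis inhibitor XIAP, had levels of -2.07, -0.87 and -0.78 in shSix4-MyoD, -1.06, -0.01 and -0.03 in shSix4-empty, -1.02, -0.73 and -0.84 in shLuc-MyoD and 0.11, 0.21 and 0.07 in shLuc-empty. Its change in shLuc cells was -0.99 ± 0.36 (adjusted p = 0.15, or 0.0188 blocked), with no overlap of the groups. Ifi35, an interferon-induced leucine-zipper protein, had levels of 1.55, 0.72 and 0.31 in shSix4-MyoD, 1.84, 0.93 and 0.94 in shSix4-empty, 1.48, 0.76 and 0.37 in shLuc-MyoD and 2.08, 1.65 and 0.86 in shLuc-empty. Slide 1 was the highest of every group, and the change in shLuc cells was -0.66 ± 0.43 (adjusted p = 0.464, or 0.012 blocked).

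The remaining 5 effectors passed in neither line. Ifi27, a small mitochondrial protein, had levels of 4.57, 5.29 and 5.01 in shSix4-MyoD, 5.20, 5.28 and 5.21 in shSix4-empty, 5.07, 5.03 and 4.95 in shLuc-MyoD and 5.53, 5.74 and 5.18 in shLuc-empty. Its shLuc groups did not overlap, with a change of -0.47 ± 0.21 (adjusted p = 0.257), and its shSix4 groups did, with -0.27 ± 0.21. Isg20, an RNA exonuclease, had levels of -0.09, -2.32 and -2.42 in shSix4-MyoD, -0.51, -2.40 and -2.30 in shSix4-empty, -1.11, -3.08 and -2.88 in shLuc-MyoD and -1.23, -2.30 and -2.82 in shLuc-empty. It was the 1 interferon gene above 0 in shSix4 cells, at 0.13 ± 0.77, and its slide 1 arrays were the highest of every group. Ifi44 had levels of -4.76, -3.15 and -2.78 in shSix4-MyoD, -3.93, -2.70 and -3.10 in shSix4-empty, -4.45, -3.40 and -3.12 in shLuc-MyoD and -3.83, -3.37 and -3.18 in shLuc-empty. Its MyoD and empty-vector arrays overlapped in both lines, with changes of -0.32 ± 0.53 in shSix4 cells and -0.20 ± 0.53 in shLuc cells. Parp14, an ADP-ribosyltransferase, had levels of -1.59, -0.35 and -0.21 in shSix4-MyoD, -1.63, -0.15 and 0.07 in shSix4-empty, -1.98, -1.40 and -1.26 in shLuc-MyoD and -1.59, -1.32 and -0.68 in shLuc-empty. Here too the groups overlapped, with changes of -0.15 ± 0.49 and -0.35 ± 0.49. Bst2, the tetherin that holds budding virus at the cell surface, had changes of -0.29 ± 0.22 and -0.43 ± 0.22.

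**Figure D4:**
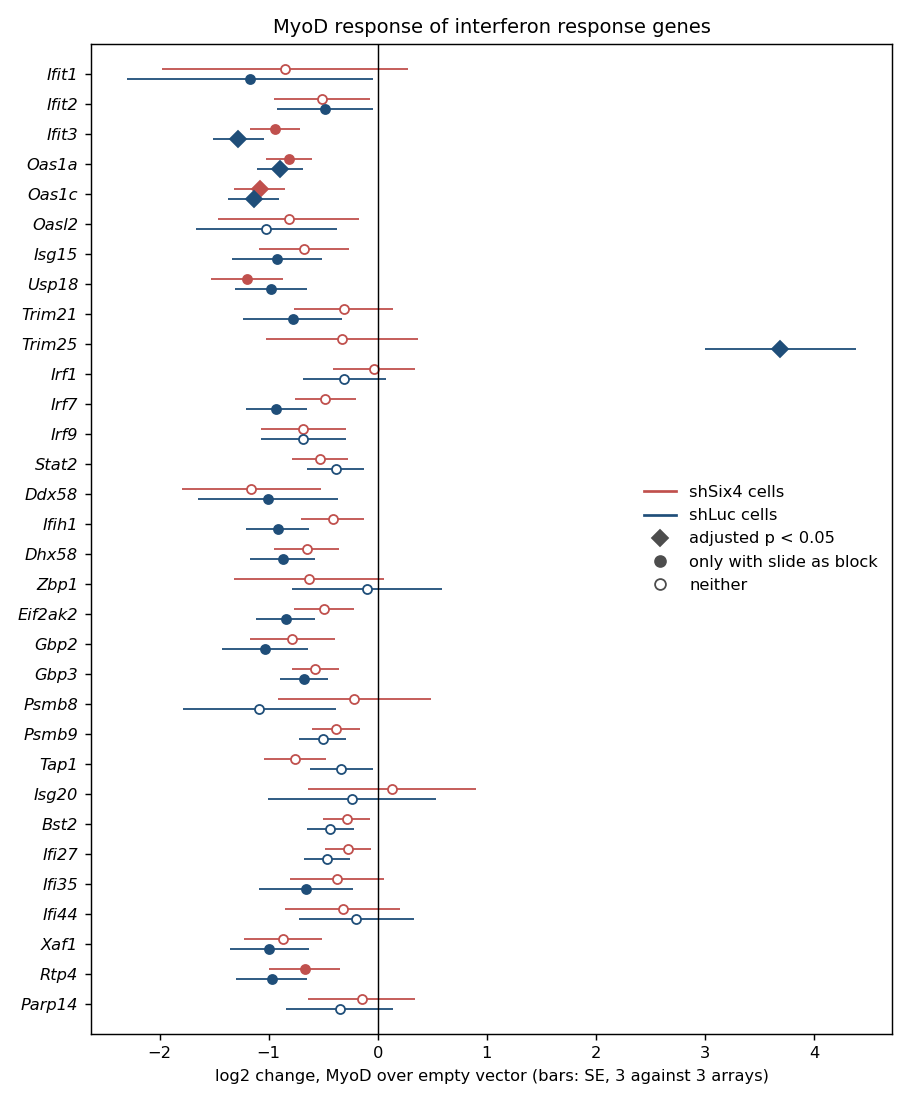
Log2 change with MyoD over empty vector for the 32 tested interferon genes in shSix4 cells (red) and shLuc cells (blue), with bars for the SE of 3 against 3 arrays, diamonds for an adjusted p under 0.05 and filled circles where this holds only with the slide as a block. All bars are of the fit without the block. All points but Isg20 in shSix4 cells and Trim25 in shLuc cells, at 0.13 and 3.69, lie left of 0, and the Trim25 value is against a group not well above background.

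The knockdown of Six4 gave no call among the interferon genes. With MyoD, 0 of 32 differed between shSix4 and shLuc cells (0.228% of all genes did, and 3 interferon genes had an unadjusted p under 0.05), 20 were lower in shSix4 cells against 45.6% of all genes, and the median log2 difference was -0.10. With empty vector, 0 of 32 differed (0.0569% of all genes did, and 2 interferon genes had an unadjusted p under 0.05), 26 were lower in shSix4 cells against 54.1% of all genes, and the median was -0.23 against -0.03. Trim25 was among the 3 genes with MyoD, and Oas1a and Psmb8 were the 2 with empty vector. The filter kept each of them only through shLuc groups, where it was high, and so had a part in these unadjusted p-values. With the slide as a block, 0 of 32 passed in either comparison, where 4.33% and 0.642% of all genes did. These medians rested in part on slide 1: without its 4 arrays 15 of 32 were lower with MyoD and 18 of 32 with empty vector, and the medians were 0.10 and -0.09.

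The intervals of single genes are from the fit without the block, so they include the scatter between slides. They leave room for sizable differences. For Ifit3 the 95% interval of the log2 difference between shSix4 and shLuc cells was -0.21 to 0.82 with MyoD and -0.54 to 0.48 with empty vector. For Isg15 it was -1.26 to 0.56 with MyoD and -1.50 to 0.31 with empty vector. Usp18 was -0.87 ± 0.33 with MyoD and -0.65 ± 0.33 with empty vector (adjusted p = 0.469 and 0.999), and in both pairs its 3 shSix4 arrays lay below the 3 shLuc arrays. Groups without overlap were lower in shSix4 cells for 3 genes with MyoD, against 6.09% of all genes, and for 4 genes with empty vector, against 5.07%. Trim25 is among the 3, and Oas1a and Psmb8 are among the 4. These genes were kept only through shLuc groups, where they were high, so the filter had a part in both counts. Psmb8 had the largest difference with empty vector, -1.66 ± 0.70 (adjusted p = 0.999), at -2.28, -2.42 and -0.28 on the 3 slides. The probe used was above background on 2 of 3 arrays in each shSix4 group and on all 3 in each shLuc group.

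Whether MyoD acted differently in the lines was tested as the difference of the MyoD changes, shSix4 minus shLuc. No interferon gene passed, with or without the block, where 0% of all genes did, and 1, Trim25, had an unadjusted p under 0.05. Trim25 was kept only through shLuc-MyoD, where it was high, so the filter had a part in that p-value. The median difference was 0.20, and 8 of 32 were below 0. Its sign was not stable to the processing, since with normexp background correction the median was -0.04 and 18 were below 0, and without the slide 1 array of shSix4-empty it was -0.05. For Ifit3 the difference was 0.34 ± 0.33 with a 95% interval of -0.39 to 1.06, and for Isg15 it was 0.24 ± 0.58 with -1.04 to 1.53. So the larger number of calls in shLuc cells is not shown to be a difference between the lines.

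Interferon genes also differed between slides, as most genes did. Across the 3 slides, 22 of 32 differed past an adjusted p of 0.05 in limma's F-test with group in the fit, where 57.2% of all genes did, a share of 68.8% of the interferon genes. Slide 2 was higher than slide 1 for 17 genes (21.7% of all genes) and lower for 3 (30.2%), and slide 3 was higher than slide 1 for 14 (22.4%) and lower for 5 (30.6%). Between slides 3 and 2 there was no call (0.0813% of all genes were higher and 0.00813% lower). The median difference of slide 2 minus slide 1 was 0.57 for interferon genes and -0.10 for all genes. Slide 1 had the lowest mean of the 3 slides for 22 interferon genes and the highest for 6.

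Ifit1 differed most, with mean levels of -3.87, -1.18 and -1.21 on slides 1, 2 and 3. Slide 2 minus slide 1 was 2.69 ± 0.27 (SE, adjusted p = 0.00015) and slide 3 minus slide 1 was 2.66 ± 0.27 (adjusted p = 0.000152), so that 4 arrays of different groups stood apart from the other 8. Isg20 went the other way, with -1.79 ± 0.18 and -1.87 ± 0.18, and Ifit2 and Ifi35 did too, with slide 2 minus slide 1 at -1.06 ± 0.13 and -0.72 ± 0.13. The RNA sensors were all higher on slide 2 than on slide 1, from 0.58 ± 0.14 for Eif2ak2 to 1.75 ± 0.28 for Zbp1, and Ddx58 was at 1.60 ± 0.27. Trim21 (0.96 ± 0.11), Irf1 (0.80 ± 0.13), Ifi44 (1.09 ± 0.21) and Parp14 (0.89 ± 0.19) were higher on slide 2 as well. Ifit3 and Usp18, which fell in both lines with MyoD under the block, were not called between slides, at 0.27 ± 0.18 and 0.32 ± 0.27. The labels do not say what a replicate number shares beside the slide, so slide, scan and any shared culture or infection cannot be told apart.

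**Figure D5:**
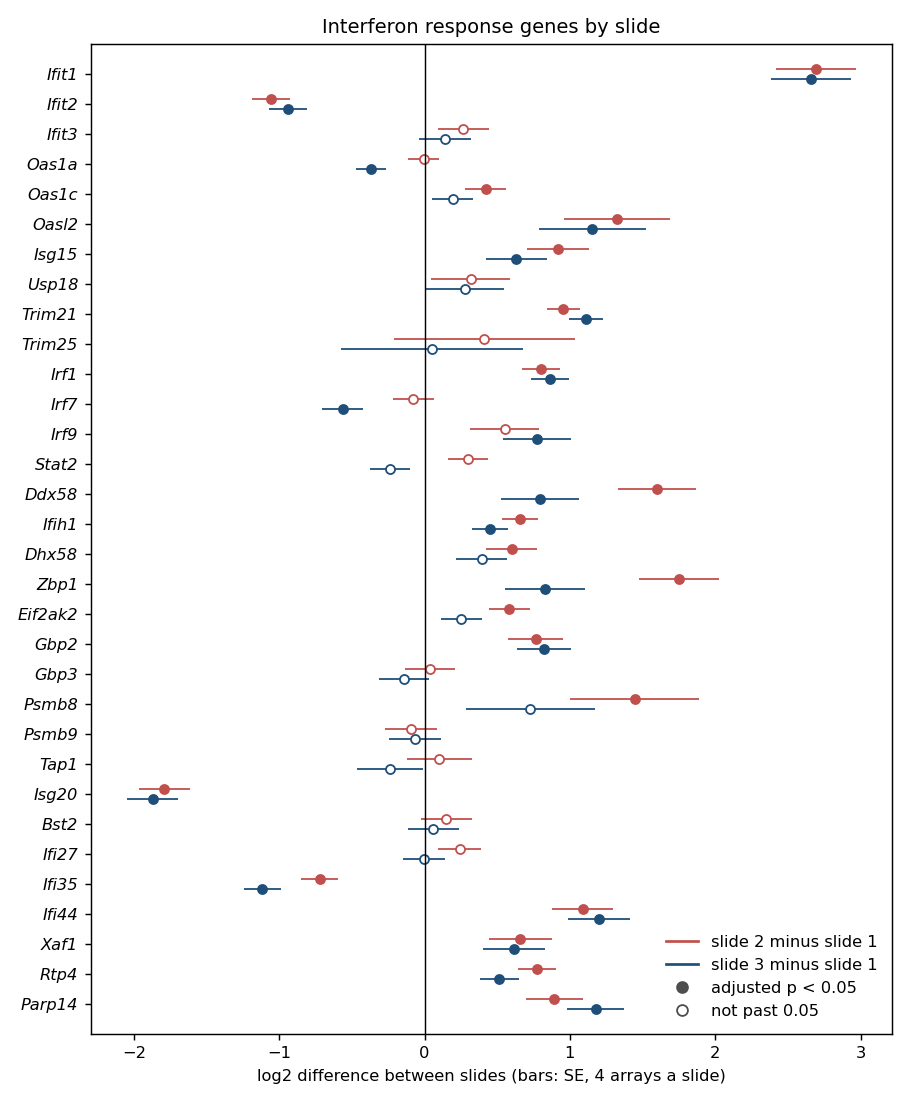
Log2 difference of slide 2 minus slide 1 (red) and slide 3 minus slide 1 (blue) for the 32 tested interferon genes, with bars for the SE of 4 arrays a slide and filled points for an adjusted p under 0.05. Most filled points lie right of 0, from Ifit1 at 2.69 downward, while Isg20, Ifit2 and Ifi35 lie left of it on both.

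Other genes of the pathway were taken from 4 lists of 134 genes in all, of which 89 were tested. Their counts stand beside all genes, of which 1.56% fell in shLuc cells (15.7% with the block) and 0.106% fell in shSix4 cells (2.60%), while 4.72% rose in shLuc cells (9.89%) and 2.79% rose in shSix4 cells (5.70%). Of the interferons themselves 6 of 17 listed genes were tested, all of them interferon alpha or zeta genes with close copies, and none passed in either line (0 at an unadjusted p of 0.05 in each), with 2 lower in shLuc cells with the block. Of the receptors, Janus kinases, Stat proteins and their inhibitors, 15 of 17 were tested and none passed (0 at an unadjusted p of 0.05 in shSix4 cells and 4 in shLuc cells), with 5 lower in shLuc cells with the block. Of the genes that sense nucleic acid and induce interferon, 18 of 22 were tested and 2 fell in shLuc cells, 8 with the block, while in shSix4 cells 1 rose and 1 fell with the block. Of 78 further interferon-stimulated genes, 50 were tested, 2 fell in shLuc cells and 1 rose in shSix4 cells, and with the block 21 fell and 1 rose in shLuc cells, and 5 fell and 2 rose in shSix4 cells. The median change of this last list was -0.26 in shSix4 cells and -0.41 in shLuc cells.

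In shLuc cells Ticam1, the adaptor of the RNA receptor Tlr3, changed by -0.96 ± 0.17 (SE, adjusted p = 0.00571), with levels of -0.56, -0.56 and -0.80 in shLuc-MyoD against 0.37, 0.54 and 0.05 in shLuc-empty. Apol9b fell by 1.36 ± 0.33 (adjusted p = 0.0327), and Nmi, a partner of Ifi35, by 0.86 ± 0.19 (adjusted p = 0.0231). Ccl5, a chemokine that interferon and NF-kappaB signalling raise, went the other way in shSix4 cells. Its levels were -1.37, -0.98 and -1.60 in shSix4-MyoD, -3.34, -3.60 and -3.32 in shSix4-empty, -3.44, -3.88 and -3.95 in shLuc-MyoD and -3.96, -3.74 and -4.16 in shLuc-empty. The 3 shSix4-MyoD arrays lay above the other 9. Ccl5 rose with MyoD in shSix4 cells by 2.10 ± 0.22 (adjusted p = 0.000159) and was higher in shSix4-MyoD than in shLuc-MyoD by 2.44 ± 0.22 (adjusted p = 0.0032), while the difference of its MyoD changes, 1.91 ± 0.31, did not pass (adjusted p = 0.22).

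Of 7 skeletal muscle markers, 6 rose with MyoD in each line, and the summed signal of the list, as multiples of the 75th percentile of the array, was 182.3 to 307.6 in shSix4-MyoD, 8.549 to 45.22 in shSix4-empty, 525.3 to 793.5 in shLuc-MyoD and 17.94 to 36.26 in shLuc-empty. Myog, Ckm and Myh3 were kept only through groups with MyoD, where they were high. All 8 fibroblast markers were above background on every array, had changes below 0 in both lines and passed in neither (0 of 8 at an unadjusted p of 0.05 in shSix4 cells and 1 in shLuc cells), though 3 fell in shLuc cells with the block. Their sum was 887.3 to 1279 in shSix4-MyoD, 1018 to 1316 in shSix4-empty, 902.3 to 1183 in shLuc-MyoD and 1012 to 1746 in shLuc-empty. Of 11 leukocyte markers 5 were tested, and Coro1a fell in shLuc cells by 0.75 ± 0.17 (adjusted p = 0.0247). The defining leukocyte genes Ptprc, Itgam and Adgre1 were not well above background on all arrays of any group, and the list summed to 1.087 to 1.357 in shSix4-MyoD, 1.246 to 1.553 in shSix4-empty, 0.7329 to 0.825 in shLuc-MyoD and 0.9502 to 1.259 in shLuc-empty. Of 9 endothelial and epithelial markers 5 were tested and 1, Vwf, rose in each line, with list sums of 0.2065 to 0.3911 in shSix4-MyoD, 0.2794 to 0.3364 in shSix4-empty, 0.2327 to 0.3075 in shLuc-MyoD and 0.2813 to 0.3313 in shLuc-empty. The part of these markers in the changes of the interferon genes was not tested.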

How the data were processed

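RNA of the 12 samples was labelled with Cy3 and hybridised to Agilent mouse arrays of 1 colour. The scanner files deposited by the authors give 1 linear Cy3 intensity per spot and array. They came from Agilent Feature Extraction, for which the file headers name version 11.5.1.1 and the submitters' processing notes name 10.5.1.1. The processed signal is background-corrected within its array and not scaled between arrays, per the file headers. A second table deposited by the authors has normalized log2 values; it holds 5 of the interferon genes and served as an alternative.

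From the scanner files, log2 of the processed signal minus the 75th percentile over the 43379 non-control spots was taken. Spots marked as outliers were left out and spots of a probe averaged. Probes stayed in if at least 1 group had them well above background on its 3 arrays. Probes were named through their RefSeq accession (24844 of 41174), and of several probes of a gene the brightest was used; 13 interferon genes had more than 1. limma 3.58.1 in R 4.3.3 fitted the 4 group means over 12 arrays, with 8 residual degrees of freedom, and p-values were adjusted by the method of Benjamini and Hochberg over 12300 genes, with a threshold of 0.05. The fit was tested on simulated data drawn independently for each array, with no slide effect in the test of group changes. Such data do not show how it behaves where arrays of a slide deviate together. The number of arrays limits the precision.

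Replicate numbers from the labels matched the slides in the file headers. Deviations from group means of arrays of 1 number correlated at 0.278 to 0.819 across 12144 genes. Those of arrays of different number and group correlated at -0.733 to 0.498, a range that overlaps the first in part. The numbers were taken to pair the samples, and the fit with the slide as a block is given where it changes a call. Where a group was not above background on any array, the fold is a bound: the mean of the bright group against the mean, per array, of the higher of the lowest signal above background and the probe's own.

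Alternatives were other background corrections, normalizations, filters and fits, and leaving out each array. The interferon genes and all lists were chosen with earlier results of these data known. Values on every array are given for genes that passed in any comparison, with or without the block, and for the brightest gene of each role; of the pathway lists, the genes with the largest changes among those that passed were named, at most 5 in a comparison, except 1 gene that is not reported here. The samples' description field, which names C2C12 cells against all other labels, was not used.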

Additional observations from a re-analysis of the deposited data

Results flagged for a closer look

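Trim25 was singled out because its difference between shSix4 and shLuc cells went one way with MyoD and the other way with empty vector on every slide. With MyoD it was -2.68, at -2.86, -3.60 and -1.57 on slides 1, 2 and 3, and with empty vector it was 1.34, at 0.76, 2.60 and 0.68. The difference of these differences, -4.02 ± 0.98 (SE), had an adjusted p of 0.806 in limma's fit and 0.372 with the slide as a block. With empty vector the probe was well above background on 1 of 3 arrays in shSix4 cells and on 0 of 3 in shLuc cells, so these differences are of signals near background. It was kept only through shLuc-MyoD, where it was high, so the filter had a part in the difference with MyoD.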

How the results depend on the processing

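No interferon gene that passed between groups, with or without the block, or for slide 2 minus slide 1 reversed direction under any alternative run. The other slide differences were not followed. The main count of calls with MyoD in shLuc cells was 4 of 32, where 6.28% of all genes were called. It was 0 with normexp background correction on the median signal (86 genes called of all, against 772). It was 2 of 25 with probes above background on all arrays only (4.18% of all genes) and 0 of 5 in the authors' deposited table (5.68%). Without the 4 arrays of slide 1 it was 10 (8.13%). It was 19 with the replicate block (25.6%) and 16 with the block as a random effect (24.6%), which lost Ifit1, Ifit2 and Ddx58. Leaving out 1 array gave 2 to 6. In shSix4 cells the count was 1, Oas1c, where 2.89% of all genes were called. It was 0 with normexp (49 genes of all, against 356), with no filter (1.76%), in the deposited table (1.89%) and with the 6 arrays compared alone (1.85%). Without slide 1 it was 2 (3.52%), neither of them Oas1c, whose call ended there. It was 5 with the replicate block (8.3%) and with the random block (8.13%). Leaving out 1 array gave 0 to 2. Between shSix4 and shLuc cells with MyoD it was 0 (0.228% of all genes), and 1 (Trim25, lower) with the random block (5.28%). The filter kept Trim25 only through shLuc-MyoD, its high group in this comparison. Leaving out 1 array gave 0 to 0 in that comparison, with empty vector and for the difference of the MyoD changes. Between replicate numbers it was 22 (57.2% of all genes), but 4 with normexp (19.8%) and 9 with no group term (35.9%). In the deposited table it was 4 of 5 (56.8%). Leaving out 1 array gave 16 to 23. The causes of these moves were not tested.

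Leaving out 1 array ended the shLuc call of Oas1a without replicate 1 or 3 of shLuc-MyoD or 1 or 2 of shLuc-empty (adjusted p 0.0505 to 0.12), and that of Oas1c without the same arrays (at most 0.0646). The Oas1a call also ended with quantile normalization (0.108), no filter (0.0584), the 6 arrays compared alone (0.0955) and without slide 1 (0.0732). With normexp the shLuc calls of Oas1a and Oas1c ended too, at log2 changes of -0.37 and -0.85. In shSix4 cells the call of Oas1c ended without replicate 1 or 3 of shSix4-MyoD, any replicate of shSix4-empty or replicate 3 of shLuc-MyoD (0.0508 to 0.126). That call also ended without slide 1 (0.0698), with no filter (0.0611), with the 6 arrays compared alone (0.179) and with normexp. The calls of Ifit3 and Trim25 in shLuc cells ended with normexp, where the log2 changes were -1.04 and 0.30 (adjusted p = 0.344 and 1.00) in place of -1.28 and 3.69, and that of Trim25 also without slide 1 (0.0609). The member medians kept their sign in both MyoD comparisons when any array was left out, at -0.94 to -0.72 in shLuc cells and -0.75 to -0.33 in shSix4 cells. The planned normexp on the mean signal was not run, as the files used here hold the median signal; the median-signal version and the fits without slide 1 were chosen after seeing the data. Dim probes, as those of Trim25 and Oas1a, are limited by signal over background.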
